A study of Homo sapiens with 12 samples.

Results

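Collagens are the main structural proteins of the extracellular matrix, and this is an account of the 43 genes whose symbols name a collagen alpha chain, out of 57820 genes in the files. They were chosen by symbol (COL, a type number, A and a chain number), leaving out COL17A1, and the rule uses no measured value. RNA was sequenced from 2 squamous carcinoma cell lines, BICR31 from a head and neck tumour and HCC95 from a lung tumour. BICR31 cells received a small interfering RNA against the transcription factor KLF5 (siKLF5, 3 libraries) or a negative control RNA (siNC, 3 libraries). HCC95 cells over-expressed KLF5 carrying the change E419Q (2 libraries), wild-type KLF5 (WT, 2 libraries) or an empty vector (Empty, 2 libraries), so every HCC95 group carried a vector. The genotype at KLF5 that each line has of its own, the vector, its promoter, the dose and the harvest time were not given in the sources used here, nor whether a line was cloned. Nothing in the labels ties each library to a culture of its own, so the spread behind the p-values may be technical. Library A, B and C are the letters in the labels.

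Each collagen molecule is a trimer of alpha chains wound into a triple helix, built in the endoplasmic reticulum and secreted. Types I, II, III, V, XI, XXIV and XXVII form fibrils, type IV forms the sheet of basement membranes on which epithelial cells rest, type VI forms beaded filaments, and type VII forms the anchoring fibrils that tie basement membrane to the stroma below. Types IX, XII, XIV, XVI and XIX to XXII decorate fibrils, type XVIII is a basement membrane proteoglycan, and types XIII, XXIII and XXV span the cell membrane. In squamous epithelium, keratinocytes themselves make types IV and VII, while fibrillar type I is mainly a product of fibroblasts. KLF5 belongs to the KLF family of zinc finger factors, which bind GC-rich and CACCC DNA elements, and is expressed in the basal layer of squamous epithelia.

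KLF5 itself averaged 959 ± 67.5 normalised units in siKLF5 cells and 2530 ± 211 in siNC cells (SD, n = 3 each), and 435 ± 10.3, 412 ± 11.3 and 143 ± 9.77 CPM (counts scaled to a common library total) in E419Q, WT and Empty cells (SD, n = 2 each). HCC95 libraries held 3074140 to 4643790 counts, and BICR31 libraries about 1922360 to 2296190, estimated from the step that 1 read makes in the normalised values. At that depth 3 counts correspond to 0.646 to 0.976 CPM in HCC95 and to 23.6 to 27.4 units in BICR31, and these limits cover counting error only. Squamous epithelial markers (KRT5, KRT14, TP63 and 5 others) were present in every library and summed to 5043 to 5188 CPM in siKLF5, 6419 to 6448 in siNC, 13064 to 13674 in E419Q, 18689 to 19344 in WT and 16395 to 16878 in Empty libraries. In BICR31 the 8 markers did not move together. In siKLF5 against siNC, limma's test called 3 higher (CDH1, DSG3 and PERP) and 4 lower (KRT5, KRT6A, TP63 and KRT14). All 8 fibroblast markers together summed to 1.82 to 2.61 CPM in siKLF5 and 3.10 to 3.64 CPM in siNC libraries. In HCC95 they summed to 51.1 to 55.3, 52.6 to 58.0 and 55.3 to 57.9 CPM in E419Q, WT and Empty libraries, nearly all from THY1. DCN and LUM, defining fibroblast genes, had at most 1 count in any library.

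Collagen transcripts were a small part of the RNA of both lines. They took 0.136% ± 0.00331 of counts in siKLF5 and 0.129% ± 0.00643 in siNC libraries (SD, n = 3 each). In HCC95 they took 0.169% ± 0.000367 in E419Q, 0.168% ± 0.00457 in WT and 0.136% ± 0.00422 in Empty libraries (SD, n = 2 each), so both KLF5 groups lay above both control libraries. Not all members rose. COL7A1 averaged 503, 633 and 388 CPM in E419Q, WT and Empty, while COL4A1, COL4A2 and COL4A5 had their highest means in Empty. Levels of different genes were set side by side per kilobase, using the mean HCC95 effective length that RSEM estimated. In siNC cells the highest were COL4A2 (880 ± 46.5 units per kilobase), COL7A1 (744 ± 119), COL18A1 (382 ± 35.5), COL4A1 (363 ± 21.4) and COL16A1 (361 ± 54.6). COL4A1 and COL16A1 did not differ beyond their spread, nor did either differ from COL18A1 beyond it. In Empty HCC95 cells the order was COL7A1 (99.2 ± 3.80 CPM per kilobase), COL4A2 (43.2 ± 1.08), COL4A1 (28.1 ± 0.454), COL18A1 (20.7 ± 4.01) and COL4A5 (17.6 ± 1.01), and the last 2 overlapped in their spread. Types IV, VII and XVIII led in both lines, while the fibrillar chains COL2A1, COL3A1, COL11A1 and COL24A1 had at most 3 counts in every library.

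**Figure D1:**
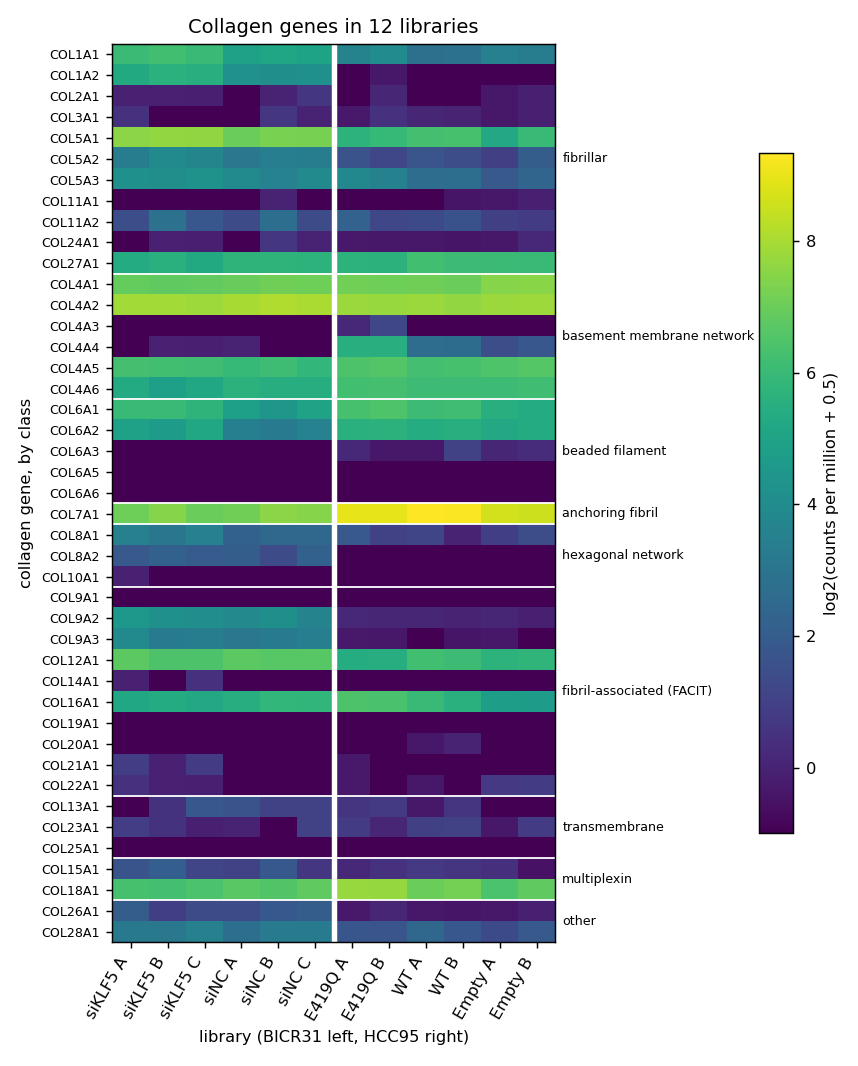
Heat map of log2(CPM + 0.5) for the 43 collagen genes (rows, by structural class) in the 12 libraries (columns, BICR31 left of the white line, HCC95 right; BICR31 counts were estimated from the normalised values). COL7A1 and COL4A2 are bright in all libraries, COL4A4 is visible in HCC95 and brightest in E419Q, and 5 genes are at the lowest colour throughout.

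Of the 43 genes, 26 could be tested in BICR31 (mean of at least 10 units) and 16 in HCC95 (enough counts for edgeR's filter), with 15 tested in both lines, 1 (COL4A4) in HCC95 alone and 16 in neither. COL6A5, COL6A6, COL9A1, COL19A1 and COL25A1 had no count in any library. COL2A1, COL3A1, COL4A3, COL6A3, COL10A1, COL11A1, COL14A1, COL20A1, COL21A1, COL22A1 and COL24A1 had counts but too few to test in either line, with no more than 3 per library in BICR31 and no more than 6 in HCC95. Tested in BICR31 alone were COL1A2, COL5A2, COL8A1, COL8A2, COL9A2, COL9A3, COL11A2, COL13A1, COL15A1, COL23A1 and COL26A1, which reached at most 17 counts (COL5A2) in any HCC95 library. COL4A4 passed HCC95's filter through its E419Q and WT libraries and COL28A1 through its WT libraries, so their being tested already reflects uneven counts. Across the 4 comparisons 15 genes passed an adjusted p of 0.05 at least once.

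Several members lie in pairs on the chromosome: COL4A1 beside COL4A2 on chromosome 13, COL4A3 beside COL4A4 and COL3A1 beside COL5A2 on chromosome 2, COL6A1 beside COL6A2 on chromosome 21, and COL4A5 beside COL4A6 on chromosome X. The type IV pairs are transcribed head to head. The promoter windows below (RefSeq, GRCh38.p14, 300 bases around an annotated start, most of them before it, on the gene's own strand, 5′ to 3′) belong to the head-to-head pair in which COL4A4 had the largest change in HCC95, to COL4A1, which fell while its partner did not pass the test, and to COL7A1 and COL16A1, which had the smallest adjusted p-values in HCC95 after COL4A4. Capitals mark every match to GGGCGG (or CCGCCC on the other strand) and to CACCC (or GGGTG), and matches that overlap run together.
COL4A3, chr2:227164374-227164673, plus strand:
COL4A3: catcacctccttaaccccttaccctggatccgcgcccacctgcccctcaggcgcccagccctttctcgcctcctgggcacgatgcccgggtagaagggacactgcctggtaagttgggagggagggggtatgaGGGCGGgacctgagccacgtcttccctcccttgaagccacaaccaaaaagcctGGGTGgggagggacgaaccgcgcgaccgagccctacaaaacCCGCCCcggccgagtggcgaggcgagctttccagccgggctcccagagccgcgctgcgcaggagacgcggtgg
COL4A4, chr2:227164156-227164455, minus strand:
COL4A4: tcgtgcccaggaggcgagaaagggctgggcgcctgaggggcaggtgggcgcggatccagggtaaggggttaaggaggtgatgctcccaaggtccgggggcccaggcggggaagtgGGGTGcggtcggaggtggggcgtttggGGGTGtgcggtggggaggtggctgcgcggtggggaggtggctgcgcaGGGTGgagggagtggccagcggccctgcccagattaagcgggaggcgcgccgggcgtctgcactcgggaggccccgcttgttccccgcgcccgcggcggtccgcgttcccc
COL4A1, chr13:110307108-110307407, minus strand:
COL4A1: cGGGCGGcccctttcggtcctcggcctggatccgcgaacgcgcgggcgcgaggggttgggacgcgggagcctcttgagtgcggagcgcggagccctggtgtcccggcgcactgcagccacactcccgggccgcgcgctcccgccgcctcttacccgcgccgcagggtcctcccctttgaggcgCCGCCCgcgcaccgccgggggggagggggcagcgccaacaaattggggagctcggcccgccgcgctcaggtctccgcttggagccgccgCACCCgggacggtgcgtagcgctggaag
COL7A1, chr3:48595280-48595579, minus strand:
COL7A1: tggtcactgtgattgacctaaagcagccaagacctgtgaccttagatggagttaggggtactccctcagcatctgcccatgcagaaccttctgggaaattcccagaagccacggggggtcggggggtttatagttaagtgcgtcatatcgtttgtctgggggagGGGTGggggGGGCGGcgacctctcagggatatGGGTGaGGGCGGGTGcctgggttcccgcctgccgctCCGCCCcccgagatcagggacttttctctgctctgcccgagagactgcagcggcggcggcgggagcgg
COL16A1, chr1:31703968-31704267, minus strand:
COL16A1: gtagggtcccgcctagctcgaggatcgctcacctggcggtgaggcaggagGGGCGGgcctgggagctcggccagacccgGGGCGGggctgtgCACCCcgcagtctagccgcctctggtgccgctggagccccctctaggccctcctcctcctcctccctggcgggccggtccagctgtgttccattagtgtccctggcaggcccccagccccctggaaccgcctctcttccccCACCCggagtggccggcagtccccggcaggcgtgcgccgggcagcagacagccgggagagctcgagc
The COL4A3 and COL4A4 windows share 82 bases. The COL4A1 window shares 226 of its 300 bases with that of COL4A2, whose start lies 127 bases away, so the text above holds most of both. GGGCGG matched 2 times in COL4A3, 0 in COL4A4, 2 in COL4A1, 3 in COL7A1 and 2 in COL16A1. CACCC matched 1, 3, 1, 3 and 2 times in the same order. Of 35116 RefSeq promoter windows, 45.0% held GGGCGG and 59.9% held CACCC on either strand. Of the 43 windows of the 31 collagen genes in that table, 24 (55.8%) held GGGCGG and 33 (76.7%) held CACCC. A match is a string of letters and was not tested as a binding site.

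After KLF5 silencing in BICR31, type I and type VI collagen rose most. COL1A1 and COL1A2, the chains of fibrillar type I, were 2.20-fold and 2.52-fold higher, and COL6A1 and COL6A2, chains of type VI, were 2.29-fold and 2.96-fold higher. COL5A1, COL8A1 and COL4A5 also rose, and the 2 genes that fell were COL18A1 and COL16A1. In total 7 of 26 tested collagen genes passed higher and 2 lower in limma's test on log2(units + 1), 34.6% of them, beside 26.1% of all 15710 genes tested (15.3% higher and 10.8% lower). The median log2 fold change was 0.29 over the 26 collagen genes and 0.04 over all genes. Of all calls, 58.7% were higher. After quantile normalisation 48.5% of all calls were higher, and the collagen counts were 6 higher and 6 lower. The 2 lower calls became 0 without siNC C and 1 without siKLF5 B, siKLF5 C or siNC B.

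The type I chains stood apart from their controls in every library. COL1A1 had 1183, 1333 and 1173 units in siKLF5 libraries A to C, against 518, 611 and 551 in siNC. The log2 fold change was 1.13 (SE 0.11), with a limma adjusted p of 1.21e-06. COL1A2 had 690, 867 and 795 units in siKLF5, against 318, 301 and 307 in siNC, or 1.34 on the log2 scale (SE 0.14; limma adjusted p = 2.53e-06). The lowest siKLF5 library exceeded the highest siNC library for both chains by more than the range within either group. In bulk RNA, more cells with a transcript and more of it per cell cannot be told apart. COL5A1, whose type V chain nucleates type I fibrils, had 3361, 3658 and 3614 units in siKLF5, against 2245, 2736 and 2638 in siNC. It had the highest level per kilobase of the fibrillar genes in siNC cells, and its log2 fold change of 0.48 (SE 0.08) was smaller but passed limma's test (adjusted p = 1.70e-04). COL5A2 and COL5A3, the other type V chains, had log2 fold changes of 0.40 and 0.44 and did not pass (limma adjusted p = 0.25 and 0.11). COL27A1, a fibrillar chain of cartilage, had 740, 833 and 701 units in siKLF5, against 918, 921 and 903 in siNC. The groups did not overlap, and the log2 fold change of -0.27 missed the threshold (limma adjusted p = 0.084), though it passed after quantile or TMM scaling (0.047 and 0.045) and in edgeR on estimated counts (0.041). COL11A2 had a log2 fold change of 0.32 (SE 0.55; adjusted p = 0.72).

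Type VI, whose filaments surround cells in many tissues, rose in both chains that were expressed. COL6A1 had 1134, 1125 and 961 units in siKLF5, against 491, 383 and 542 in siNC, which is 1.19 on the log2 scale (SE 0.14; limma adjusted p = 6.77e-06). COL6A2 had 534, 458 and 638 units in siKLF5, against 182, 164 and 199 in siNC. This gave the largest fold among the members called, 1.57 on the log2 scale (SE 0.19; limma adjusted p = 8.22e-06). The third chain of the usual type VI trimer, COL6A3, had 0 counts in all BICR31 libraries, which allows up to 27.4 units in the shallowest. COL8A1, a short chain of the hexagonal networks under some endothelia, had 197, 142 and 197 units in siKLF5, against 72.7, 91.2 and 90.3 in siNC. Its rise of 1.06 on the log2 scale (SE 0.30; limma adjusted p = 0.014) rested on 17 to 25 counts per siKLF5 library, and the call was lost without siKLF5 A (0.98; adjusted p = 0.063) or siKLF5 C (0.98; adjusted p = 0.067). Its partner COL8A2 did not pass (0.23, SE 0.45; adjusted p = 0.76).

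**Figure D2:**
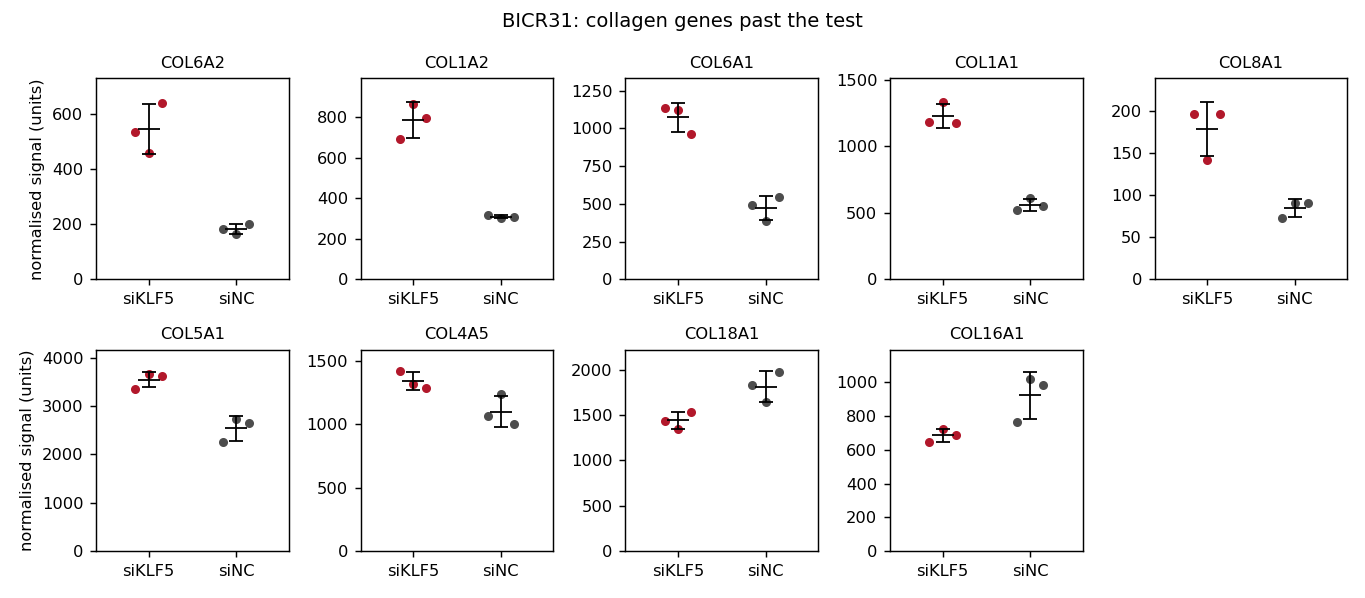
Normalised signal (units, linear axis from 0) of the 9 collagen genes past limma's test in BICR31, in order of fold change; each dot is a library, bars are the mean and SD of 3. In every panel the siKLF5 dots lie on one side of the siNC dots, which picking genes by the test favours. The fold is largest for COL6A2 (2.96) and COL1A2 (2.52).

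Among the basement membrane and anchoring collagens the changes in BICR31 were small. COL4A5 had 1422, 1317 and 1291 units in siKLF5, against 1064, 1240 and 1003 in siNC, higher by 0.29 on the log2 scale (SE 0.10; limma adjusted p = 0.046). That call was lost without any 1 of 5 libraries (siKLF5 A, B or C, siNC A or siNC C, adjusted p 0.08 to 0.17, log2 fold change 0.22 to 0.32) and under 5 of 7 other settings (adjusted p 0.054 to 0.15). Its neighbour COL4A6 went the other way, with 715, 508 and 654 units in siKLF5, against 873, 757 and 759 in siNC. The log2 fold change of -0.36 missed the threshold (limma adjusted p = 0.070), and it passed under quantile and TMM scaling and in edgeR on estimated counts (0.041, 0.039 and 0.029) and without siKLF5 A (0.044). COL4A1 had 2136, 2042 and 2094 units in siKLF5, against 2145, 2398 and 2358 in siNC (log2 fold change -0.14, SE 0.07; adjusted p = 0.21). COL4A2 had 4330, 4283 and 4087 units in siKLF5, against 4400, 4869 and 4526 in siNC (-0.12, SE 0.06; adjusted p = 0.17). Neither passed limma's test as run, while quantile normalisation called both lower (adjusted p = 0.049 and 0.031) and edgeR on estimated counts called COL4A2 (0.037). COL7A1 ranged from 2346 to 3125 units in siKLF5 and from 2382 to 3264 in siNC, with a log2 fold change between -0.38 and 0.10 (95% interval; adjusted p = 0.41).

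The 2 members called lower belong to the basement membrane zone. COL18A1, the source of the fragment endostatin, had 1438, 1350 and 1535 units in siKLF5, against 1828, 1641 and 1978 in siNC. The difference was -0.33 on the log2 scale (SE 0.09; limma adjusted p = 0.013), and the call was lost without siKLF5 B (-0.29; 0.062) or siNC C (-0.27; 0.075) and without limma's trend (0.10). COL16A1, a fibril-associated collagen found near basement membranes, had 649, 725 and 685 units in siKLF5, against 764, 1021 and 985 in siNC. The groups did not overlap, and the log2 fold change was -0.42 (SE 0.13; limma adjusted p = 0.023). Leaving out siKLF5 A, siKLF5 C, siNC B or siNC C lost the call (adjusted p 0.071 to 0.11, log2 fold change -0.42 to -0.34), as did limma without its trend (0.11). The other fibril-associated members COL9A2, COL9A3 and COL12A1 had log2 fold changes of 0.44, 0.29 and -0.10 and did not pass (limma adjusted p 0.13 to 0.48). COL13A1, COL15A1, COL23A1, COL26A1 and COL28A1, all at 25 counts or fewer per library, had adjusted p-values of 0.33 to 0.73. COL21A1 had 3, 1 and 3 counts and COL22A1 2, 1 and 1 counts in siKLF5 libraries, against 0 in siNC, at or near the limit that 3 counts set.

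Scaled per kilobase, fibrillar genes made up 26.2% ± 1.93 of all collagen signal in siKLF5 and 18.4% ± 0.228 in siNC cells (SD, n = 3 each). Beaded filament genes made up 8.02% ± 0.309 in siKLF5 and 3.65% ± 0.633 in siNC. Basement membrane genes of type IV made up 26.5% ± 0.694 in siKLF5 and 31.8% ± 1.28 in siNC, as shares of 1 total that cannot move independently. The lengths came from HCC95, where COL1A2, COL9A2 and COL9A3 had only 1, 12 and 4 counts over all libraries of that line. Lengths of such genes, and so the sizes of these shares, are uncertain. Markers of other cell types were read beside the type I and VI changes. The fibroblast list summed to only 4 to 6 counts per library in siKLF5 and 6 to 7 in siNC, too few to compare the groups. DCN had 0 counts in siKLF5 and 1 in siNC. The 3 endothelial markers in the files summed to 14.8 to 23.6 CPM in siKLF5 and 9.36 to 14.0 in siNC, and the immune list to 9.76 to 15 CPM in siKLF5 and 5.17 to 11.4 in siNC, mostly CD14. Of the endothelial markers VWF passed higher in siKLF5 (1.21 on the log2 scale; limma adjusted p = 0.022). The part of those markers in the result was not tested.

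In HCC95 each form of KLF5 was set against the empty vector and the mutant against the wild type, and 12 collagen genes passed in at least 1 of these comparisons. COL4A4 showed the largest difference, 15.9-fold higher in E419Q than in Empty cells and 7.47-fold higher than in WT cells. COL16A1, COL18A1, COL6A1 and COL7A1 were higher in both KLF5 groups than in Empty cells, and COL4A1 was lower in both. Against Empty, WT cells had 7 collagen genes higher and 2 lower of 16 tested by edgeR's quasi-likelihood test (56.3%), beside 22.9% of all 12933 genes (10.8% higher, 12.1% lower). E419Q cells had 6 higher and 3 lower (56.3%), beside 21.2% (10.4% higher, 10.8% lower). Between E419Q and WT cells 5 were higher and 4 lower (56.3%), beside 8.00% (4.41% higher, 3.59% lower). The median log2 fold change of the 16 genes was 0.42, 0.18 and 0.14 in these 3 comparisons, and 0.003, 0.004 and -0.003 over all genes. The comparisons share libraries, so their counts are not independent of each other. All 3 counts of higher genes include COL4A4, which passed the filter through its E419Q and WT libraries and not through Empty.

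With 2 libraries a group, the counts of collagen calls depended on single libraries. WT against Empty had 1 lower call without Empty B, WT A or WT B. E419Q against Empty had 1 lower call without E419Q A or without E419Q B. E419Q against WT had 3 higher calls without E419Q A, E419Q B or WT A and 2 without WT B, and 2 lower calls without E419Q B or WT A. The other leave-one-out counts of collagen genes stayed within 1.5 times of the full ones, while counts over all genes fell by more in some cases.

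**Figure D3:**
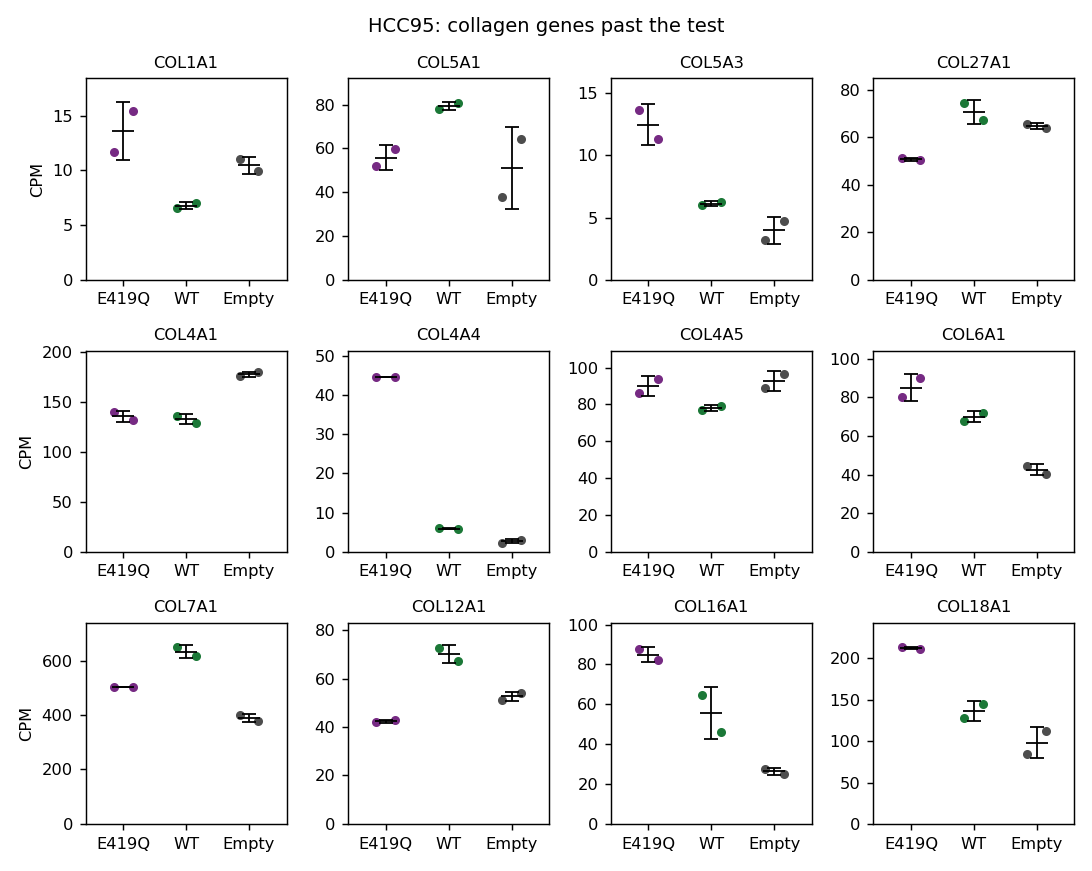
CPM (linear axis from 0) of the 12 collagen genes past edgeR's test in at least 1 HCC95 comparison; each dot is a library, bars are the mean and SD of 2. COL4A4 is near 45 in both E419Q libraries and under 6 in all others, while COL7A1 is highest in WT and COL4A1 highest in Empty.

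COL4A4 encodes a chain of the specialised type IV network that it forms with COL4A3 and COL4A5 in kidney and other basement membranes. It had 137 and 150 counts in E419Q libraries A and B (44.6 and 44.6 CPM), 21 and 23 in WT (5.97 and 5.76 CPM) and 8 and 14 in Empty (2.32 and 3.01 CPM). All 3 groups were separate from each other. Its log2 fold change was 3.99 (SE 0.22) in E419Q against Empty, with an edgeR adjusted p of 1.07e-11, and 2.9 (SE 0.19) in E419Q against WT, with 4.26e-10. Both held with each library left out. In WT against Empty it was 1.09 (SE 0.33; edgeR adjusted p = 0.020). This call was lost without any 1 of the 4 libraries compared (Empty A 0.94, Empty B 1.31, WT A 1.06, WT B 1.12, adjusted p 0.051 to 0.10) and in DESeq2 (0.13). COL4A3, across the shared promoter region printed above, had 2 and 6 counts in E419Q and 0 in all WT and Empty libraries. The count in E419Q A is under the 3 counts taken as the limit per library, so the difference rests on E419Q B and no fold is given. In BICR31 COL4A4 had at most 1 count per library and COL4A3 0. A gene annotated on the opposite strand of COL4A3 had 2 counts over the 6 HCC95 libraries, and the use of strand in counting was not given in the sources used here.

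The common type IV chains moved apart in HCC95. COL4A1 had 140 and 132 CPM in E419Q, 136 and 129 in WT, and 176 and 180 in Empty, so every KLF5 library was below both controls. On the log2 scale it differed by -0.42 (SE 0.08; edgeR adjusted p = 2.76e-04) in E419Q against Empty and -0.44 (SE 0.07; 1.63e-04) in WT against Empty, and 0.01 between E419Q and WT (95% interval -0.15 to 0.18). COL4A2, its partner in the same trimer, had 222 and 212 CPM in E419Q, 220 and 201 in WT, and 222 and 230 in Empty. It passed in no comparison, with 95% intervals of -0.23 to 0.06 for E419Q against Empty and -0.26 to 0.02 for WT against Empty. COL4A5 had 86.2 and 93.9 CPM in E419Q, 76.8 and 79.4 in WT, and 89.1 and 96.7 in Empty. It was lower in WT against Empty (-0.27, SE 0.09; edgeR adjusted p = 0.040), a call lost without Empty B (-0.20; 0.25), WT A (-0.25; 0.18) or WT B (-0.29; 0.11), in DESeq2 (0.33), with upper-quartile scaling (0.079) and in a fit of the 4 libraries alone (0.051). COL4A6 ranged from 66.9 to 77.6 CPM over the 6 libraries and passed in no comparison (edgeR adjusted p 0.47 to 0.65).

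**Figure D4:**
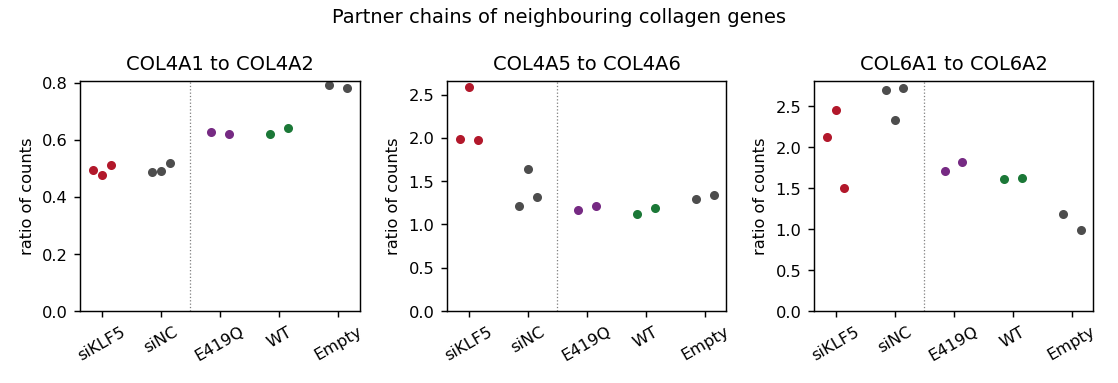
Ratio of counts between partner chains of 3 neighbouring collagen gene pairs (linear axis from 0), 1 dot per library, BICR31 left and HCC95 right of the dotted line. COL4A1 to COL4A2 is lower in E419Q and WT than in Empty, COL6A1 to COL6A2 is higher, and COL4A5 to COL4A6 is higher in siKLF5 than in siNC.

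Ratios within pairs show this without any scaling between libraries. COL4A1 to COL4A2 was 0.621 to 0.630 in E419Q, 0.622 to 0.643 in WT and 0.783 to 0.793 in Empty, while in BICR31 it was 0.477 to 0.513 in siKLF5 and 0.488 to 0.521 in siNC, where the groups overlapped. COL4A5 to COL4A6 was 1.98 to 2.59 in siKLF5 and 1.22 to 1.64 in siNC. In HCC95 it was 1.17 to 1.21 in E419Q, 1.13 to 1.19 in WT and 1.30 to 1.34 in Empty. COL6A1 to COL6A2 was 1.71 to 1.83 in E419Q, 1.61 to 1.62 in WT and 0.995 to 1.18 in Empty, and it overlapped in BICR31, at 1.51 to 2.45 in siKLF5 and 2.33 to 2.73 in siNC. These ranges describe 2 or 3 libraries a group and were not tested.

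COL7A1, the single chain of anchoring fibrils, had the highest level per kilobase of the collagens in all 3 HCC95 groups. It had 502 and 503 CPM in E419Q, 651 and 616 in WT, and 399 and 377 in Empty, 3 groups in an order with no overlap. It rose by 0.34 on the log2 scale (SE 0.06; edgeR adjusted p = 1.66e-04) in E419Q and by 0.70 (SE 0.06; 1.13e-08) in WT against Empty, and was lower in E419Q than in WT (-0.35, SE 0.06; 1.95e-04). All 3 calls held without each library. As a share of the collagen level per kilobase, COL7A1 made up 34.0% ± 0.0195 in E419Q, 43.1% ± 0.241 in WT and 34.2% ± 2.01 in Empty (SD, n = 2 each). Type IV genes made up 26.0% ± 0.167, 23.5% ± 0.0623 and 34.9% ± 0.330 in the same groups. Type VII is made by basal keratinocytes, and the squamous marker sum given above was likewise highest in WT libraries but lowest in E419Q, below Empty. In HCC95 that sum was mostly KRT5. By edgeR's test 4 of the 8 markers were higher and 3 lower in E419Q against Empty (TP63 0.45, KRT14 0.45, KRT5 -0.41). In WT against Empty 5 were higher and 2 lower. The part of these markers in the result was not tested.

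COL16A1 and COL18A1 were graded across the HCC95 groups in the order E419Q, WT, Empty. COL16A1 had 87.5 and 82.3 CPM in E419Q, 64.8 and 46.3 in WT, and 27.5 and 25.2 in Empty. Its log2 fold change was 1.66 (SE 0.14; edgeR adjusted p = 8.32e-09) in E419Q against Empty and 1.06 (SE 0.15; 1.39e-05) in WT against Empty. The difference of E419Q from WT was 0.60 (SE 0.12; edgeR adjusted p = 0.0021), lost without E419Q A (0.56; 0.053) or WT B (0.37; 0.13) and in DESeq2 (0.057). COL18A1 had 214 and 211 CPM in E419Q, 128 and 145 in WT, and 84.8 and 112 in Empty. Its log2 fold change was 1.06 (SE 0.10; edgeR adjusted p = 3.17e-08) in E419Q against Empty and 0.62 (SE 0.09; 9.23e-05) in E419Q against WT. In WT against Empty it was 0.45 (SE 0.10; 0.0023), with values of 0.28 without Empty A and 0.68 without Empty B, and the call was lost without WT B (0.35; 0.066). COL18A1 shares exon sequence with SLC19A1 on the opposite strand, so reads of the 2 genes cannot be told apart if counting ignored strand. SLC19A1, a folate carrier, moved the opposite way, by -0.60 (SE 0.10) in E419Q and -0.70 (SE 0.10) in WT against Empty.

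Type VI and the fibrillar chains gave a mixed picture in HCC95. COL6A1 had 80.0 and 90.1 CPM in E419Q, 68.0 and 72.1 in WT, and 44.6 and 40.5 in Empty, both KLF5 groups above both controls. It rose by 0.98 (SE 0.11; edgeR adjusted p = 5.30e-07) in E419Q and 0.72 (SE 0.11; 4.24e-05) in WT on the log2 scale, without passing between E419Q and WT (0.26, 95% interval 0.05 to 0.47; adjusted p = 0.13). COL6A2 had 46.8 and 49.3 CPM in E419Q, 42.1 and 44.6 in WT, and 37.6 and 40.7 in Empty, and passed in no comparison (edgeR adjusted p 0.13 to 0.62). COL5A3, a minor type V chain, had 13.7 and 11.3 CPM in E419Q, 5.97 and 6.26 in WT, and 3.18 and 4.74 in Empty. It was higher in E419Q than in Empty (1.58, SE 0.30; edgeR adjusted p = 5.07e-04) and than in WT (1.0, SE 0.28; 0.028). The second of these was lost without any 1 of the 4 libraries (E419Q A 0.86, E419Q B 1.13, WT A 0.97, WT B 1.03, adjusted p 0.079 to 0.25) and in DESeq2 (0.45). WT against Empty gave 0.58 (SE 0.33; adjusted p = 0.23).

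COL5A1 had 51.7 and 59.7 CPM in E419Q, 78.2 and 80.7 in WT, and 37.6 and 64.2 in Empty, where the 2 control libraries differed from each other more than either KLF5 pair. It was higher in WT than in Empty (0.59, SE 0.15; edgeR adjusted p = 0.0051), at 0.30 without Empty A (0.080), 1.06 without Empty B, and 0.62 in DESeq2 (0.27). E419Q was lower than WT (-0.53, SE 0.15; edgeR adjusted p = 0.032), lost without E419Q A (-0.43), E419Q B (-0.64), WT A (-0.55) or WT B (-0.51) at adjusted p 0.10 to 0.31 and in DESeq2 (0.79). E419Q against Empty did not pass (0.06; 0.83), and its sign turned without E419Q B or Empty A. COL27A1 had 51.1 and 50.2 CPM in E419Q, 74.2 and 67.1 in WT, and 65.7 and 63.9 in Empty. It was lower in E419Q than in WT (-0.50, SE 0.11; edgeR adjusted p = 0.0034), lost without E419Q B (-0.48; 0.055) or WT A (-0.42; 0.067) and in DESeq2 (0.10). It was lower than in Empty too (-0.38, SE 0.11; 0.012), lost without E419Q A (-0.40; 0.062) or E419Q B (-0.37; 0.093) and in DESeq2 (0.19).

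COL1A1, the type I chain, was sparse in HCC95, with 36 and 52 counts in E419Q, 23 and 28 in WT, and 38 and 46 in Empty (11.7 and 15.5, 6.54 and 7.01, and 11.0 and 9.91 CPM). It passed between E419Q and WT (0.98, SE 0.26; edgeR adjusted p = 0.017), lost without E419Q B (0.76; 0.25), WT A (0.94; 0.11) or WT B (1.03; 0.093) and in DESeq2 (0.31). Against Empty it did not pass in E419Q (0.36; 0.30) or in WT (-0.62; 0.091). The authors' deposited TPM values of COL1A1, which rest on RSEM's isoform lengths, averaged 6.58 ± 3.27 in E419Q, 5.22 ± 1.07 in WT and 3.26 ± 0.339 in Empty (SD, n = 2 each), an order that the counts did not show. COL1A2 had 1 count in E419Q B and 0 in all other HCC95 libraries, so type I chains were not both detectable in this line. COL12A1, a fibril-associated collagen, had 42.0 and 42.8 CPM in E419Q, 72.8 and 67.4 in WT, and 51.2 and 54.1 in Empty, with WT highest and E419Q lowest. It was lower in E419Q than in WT (-0.74, SE 0.11; edgeR adjusted p = 6.65e-05), a call that held without each library. It was higher in WT than in Empty (0.39, SE 0.10; 0.0065), lost without WT A (0.34; 0.085) and in DESeq2 (0.17). It was lower in E419Q than in Empty (-0.35, SE 0.11; 0.033), lost without E419Q A (-0.34; 0.14), E419Q B (-0.36; 0.13) or Empty B (-0.31; 0.16) and in DESeq2 (0.33). In deposited TPM, COL12A1 averaged 9.5 ± 2.2 in E419Q, 12.8 ± 1.5 in WT and 9.4 ± 1.5 in Empty (SD, n = 2 each). E419Q was thus not below Empty in TPM. COL28A1, at 2.03 to 5.12 CPM, passed in none (edgeR adjusted p 0.41 to 0.92). Among the members too low to test, COL13A1 had 3 and 4 counts in E419Q, 1 and 4 in WT and 0 in both Empty libraries. COL22A1 had 1 and 0 counts in E419Q, 1 and 0 in WT, and 4 and 6 in Empty.

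**Figure D5:**
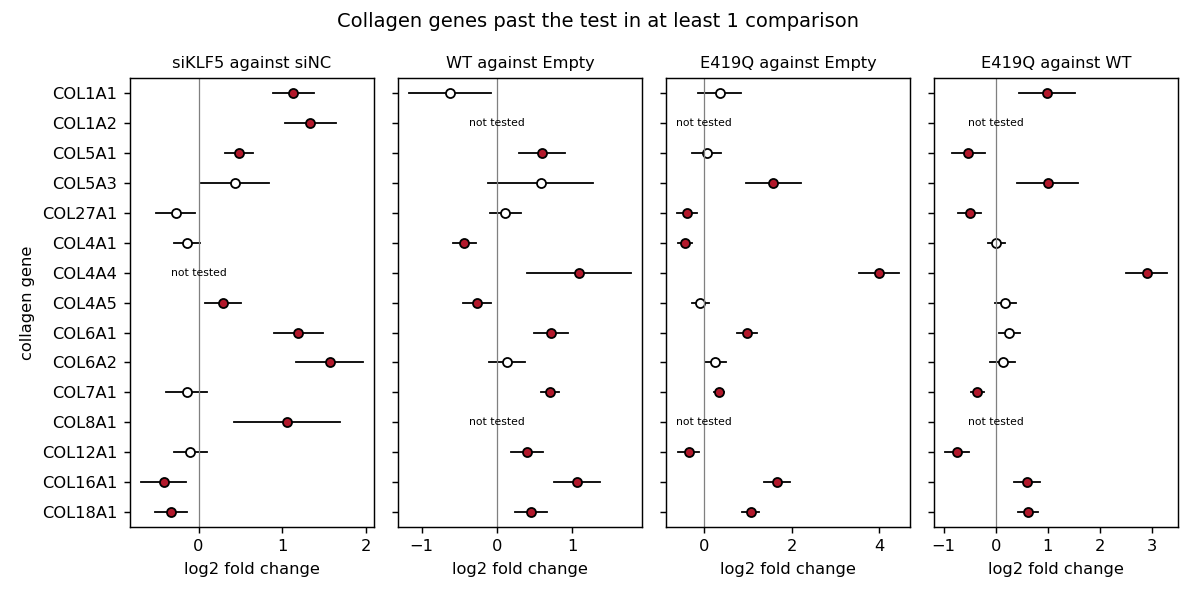
Log2 fold changes with 95% intervals for the 15 collagen genes past the test in at least 1 comparison (rows, by class) in each of the 4 comparisons (panels, each with its own horizontal scale). Filled dots have an adjusted p under 0.05 (limma in BICR31, edgeR in HCC95); COL4A4 lies at 3.99 and 2.9 in the E419Q panels, and COL16A1 and COL18A1 lie left of 0 in the siKLF5 panel and right of 0 in the others.

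The 2 lines share no libraries, so silencing in BICR31 and over-expression in HCC95 can be set side by side gene by gene. COL16A1 and COL18A1 fell in siKLF5 and rose in both WT and E419Q against their own controls. The siKLF5 calls of both, and the WT call of COL18A1, were lost without some libraries, as given above. COL6A1 rose in all 3, and COL5A1 rose in siKLF5 and in WT, where its call was lost without Empty A and in DESeq2. COL4A5 rose in siKLF5 and fell in WT, with the losses of both calls given above. The share of all genes called in both lines, in the same or opposite directions, is not given here to set beside these genes. Whether the effects differ between lines was not tested, since values of the lines were made and scaled apart. WT and E419Q against Empty share both Empty libraries, so their values are not independent of each other. COL7A1 and COL4A1 were each called in the same direction in WT and E419Q against Empty, and COL12A1 in opposite directions. COL7A1, COL4A1 and COL12A1 did not pass in siKLF5 in the main fit, where their log2 fold changes were -0.14, -0.14 and -0.10.

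Genes that build, secrete, cross-link and degrade collagen were counted in lists compiled from known roles. Earlier results of these data were known when the lists were chosen, so their counts are descriptive. They stand beside the 26.1% of all genes called in siKLF5 against siNC (15.3% higher and 10.8% lower). The shares called in the modification and propeptide lists lie close to that background. Prolyl and lysyl modification enzymes had 4 of 15 tested genes higher and 0 lower in siKLF5 by limma's test. They were P4HB (log2 fold change 0.51) and P4HA2 (0.56), subunits of the prolyl 4-hydroxylase that stabilises the helix, LEPREL4 (0.36) and the lysyl hydroxylase PLOD3 (0.24). Folding and secretion genes had 4 of 13 higher and 1 lower, including HSPA5 (0.45), FKBP10 (0.43) and the matricellular SPARC (0.44), while the collagen chaperone SERPINH1 fell by 0.23. Among propeptide processing genes 2 of 8 rose, the proprotein convertase FURIN (1.03) and the procollagen peptidase ADAMTS14 (3.66, SE 1.02). Cross-linking genes had 3 of 7 higher and 1 lower, with the type IV cross-linking peroxidase PXDN at 1.06, the lysyl oxidases LOX at 1.05 and LOXL2 at 0.51, and LOXL3 at -1.15. Receptors had 4 of 7 higher and 0 lower, namely ITGA2 (1.46), DDR1 (0.47), ITGB1 (0.22) and GPR56 (0.26). Collagenolysis genes had 4 of 8 higher and 1 lower, with the proteases MMP14 (0.87), MMP13 (2.53) and MMP9 (1.64) up and the inhibitor TIMP3 at -0.52. The list medians ran from -0.01 (cross-linking) to 0.50 (collagenolysis), beside 0.04 over all genes.

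The same lists were counted in HCC95, where 21.2% of all genes were called in E419Q and 22.9% in WT against Empty. Modification enzymes had 4 higher and 2 lower of 14 in WT against Empty and 2 higher and 1 lower in E419Q against Empty. P4HA1 (0.44 in E419Q, 0.69 in WT) and the telopeptide lysyl hydroxylase PLOD2 (0.73 in E419Q, 0.53 in WT) rose in both. P4HA2 rose (0.48) and LEPREL2 fell (-0.43) in WT, and LEPREL1 fell in E419Q (-0.60). Folding genes had 1 higher and 5 lower of 12 in WT and 2 higher and 3 lower in E419Q. SERPINH1 fell in both (-0.41 in E419Q, -0.36 in WT), while SPARC rose in E419Q (0.78) and fell in WT (-0.31). PREB fell in both (-0.35 in E419Q, -0.39 in WT), HSPA5 fell in WT (-0.21), and in E419Q FKBP10 rose (0.30) and SEC24D fell (-0.70). Among cross-linkers PXDN fell in both (-1.45 in E419Q, -1.63 in WT), LOX rose in E419Q (0.90) and fell in WT (-1.11), and LOXL4 rose in WT (3.03, SE 0.58). Propeptide processing had 2 higher and 1 lower of 6 in WT, with BMP1 at 0.60, PCOLCE2 at 0.48 and FURIN at -0.67, and 1 higher in E419Q, ADAMTS2 at 1.65. Of 7 receptors tested, DDR1 rose in WT (0.20), and in E419Q DDR1 (0.43), GPR56 (0.42) and MRC2 (0.43) rose and ITGA2 fell (-0.29). Collagenolysis genes had 2 higher and 2 lower of 7 in WT and 4 higher and 2 lower in E419Q. TIMP2 rose in both (1.02 in E419Q, 1.12 in WT). MMP9 (-2.94, SE 0.43, in E419Q and -6.17, SE 0.66, in WT) and MMP13 (-2.32 in E419Q, -1.54 in WT) fell in both. The sizes for MMP9 are imprecise, and E419Q against WT did not pass (3.23, SE 1.08; edgeR adjusted p = 0.075). MMP2 rose in both (0.59 in E419Q, 0.52 in WT), and TIMP3 was higher in E419Q (0.98).

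Between E419Q and WT cells, where 8.00% of all genes were called, cross-linkers LOX (2.0) and LOXL4 (-2.75) moved in opposite directions. SPARC (1.09), FKBP10 (0.39) and CTAGE5 (0.48) were higher and FKBP14 (-0.64) lower, which made 3 higher and 1 lower of 12 folding genes. Modification enzymes had 2 higher, COLGALT2 (0.95) and LEPREL4 (0.27), and 2 lower, PLOD1 (-0.31) and LEPREL1 (-0.54), of 14. BMP1 was lower (-0.84), the 1 call among 6 propeptide processing genes. GPR56 (0.57) and DDR1 (0.23) were higher and ITGA2 (-0.23) lower among 7 receptors, and TIMP3 (1.07) was the 1 call among 7 collagenolysis genes. The endothelial marker list, nearly all VWF, was also highest in E419Q, at 26.3 to 28.5 CPM, against 12.3 to 16.5 in WT and 11.4 to 14.2 in Empty libraries. Its part in the collagen results was not tested.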

How the data were processed

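RNA was extracted with a column kit, poly(A)-selected and made into libraries with a NEB kit, per the labels' protocols. With no order or role given, STAR, RSEM and hg19 were used for all libraries and edgeR and limma for HCC95 as well, per the submitters' processing notes. The authors deposited for BICR31 a normalised signal per gene (upper quartile 983 to 992 units in each library). For HCC95 they deposited, per the file headers, RSEM expected counts with effective length, TPM and FPKM. Expected counts were rounded to whole numbers, deposited TPM values are quoted for COL1A1 and COL12A1 alone, and deposited FPKM values were not used. Strand settings were not given in the sources used here.

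BICR31 was tested with limma 3.58.1 (moderated test with a mean-variance trend) on log2(units + 1) for genes whose 6 libraries averaged 10 units or more. HCC95 was tested with edgeR 4.0.16 (quasi-likelihood, TMM, filterByExpr) on all 6 libraries in R 4.3.3. All p-values are two-sided and were adjusted by Benjamini-Hochberg over all genes tested, with a threshold of 0.05. Fold changes on the log2(units + 1) scale are unreliable for low genes, since 1 count is 7.87 to 9.12 units. A library with 0 counts can enlarge them. COL13A1, with 0 counts in siKLF5 A, gave -1.74 for means of 23.9 units in siKLF5 and 33.3 in siNC. Both fits were also run on simulated libraries with 200 altered genes and the same spread for every gene. Those settings differ from the data, so these runs do not bear on the calls. Alternatives were another pseudocount (10 units), no filter, quantile and TMM scaling, edgeR on estimated counts, limma without the trend, DESeq2 1.42.0, upper-quartile scaling, the compared libraries alone, the library letter as a block, and leaving out each library; where that left 1 library in a group, it was assumed to vary like the others. The members and the gene lists were chosen with earlier results of these data known. Every member called in at least 1 comparison is named with its values, and up to 4 called genes with the smallest adjusted p from each list. Statements that groups did not overlap describe few libraries a group, and the share of all genes so separated is not given. No library was a copy of another: within groups, chi-square over genes was 1.24 to 1.83 times its degrees of freedom.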

Additional observations from a re-analysis of the deposited data

How the results depend on the processing

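Of 36 collagen calls, 20 held under every alternative, 14 were lost under another setting and 16 without some library, with overlap. In siKLF5 against siNC, collagen genes called lower numbered 2, against 6 after quantile normalisation, 4 with TMM, 5 in edgeR on estimated counts and 0 in limma without the trend, where 11 had an unadjusted p under 0.05 in either direction; leaving out 1 library gave 0 to 2 lower and 5 to 7 higher. All genes called were 4097, and 2281 without the trend. DESeq2 called fewer genes in all 3 HCC95 comparisons: 4 higher and 1 lower collagen genes and 1103 in all in WT against Empty, 1 lower and 1169 in all in E419Q against Empty, and 2 higher, 2 lower and 467 in all in E419Q against WT, against 2962, 2737 and 1034 in edgeR. WT against Empty had 1 collagen gene lower with upper-quartile scaling and 1 in a fit of its 4 libraries. Leaving out 1 library gave 5 to 6 higher, 1 to 2 lower and 1719 to 2422 in all for WT, 6 to 7 higher, 1 to 3 lower and 1626 to 2298 in all for E419Q, and 2 to 3 higher, 2 to 3 lower and 597 to 634 in all for E419Q against WT, where fewer libraries were fitted. COL5A1 in E419Q against Empty was -0.05 without E419Q B and -0.23 without Empty A, and 0.54 without Empty B. The cause of the other shifts was not tested.

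Deviations of same-letter libraries correlated at -0.03 to 0.03, so no pairing by letter was seen. With 2 libraries a group in HCC95, same-letter and different-letter correlations mirror each other. Whether letters mark shared preparations is therefore not settled. With the replicate block the collagen counts were 7 higher and 3 lower in siKLF5 (COL4A6 added, limma adjusted p = 0.0499), 7 and 2 in WT, 6 and 3 in E419Q and 5 and 4 in E419Q against WT, and all genes called numbered 4076, 2900, 2686 and 987. Depth limits the sparse members, such as COL4A4 in Empty libraries (8 and 14 counts) and COL8A1 in siNC libraries (8 to 10 counts).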
